A study of Mus musculus with 27 samples.

Results

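Complement components and receptors were followed across 27 RNA-seq libraries of primary microglia, the resident macrophages of the brain. The members were the rows of the authors' table of normalised counts whose gene symbol was C1qa, C1qb, C1qc, C3, C4b, Cfb, C3ar1, C5ar1 or Itgam. These 9 symbols gave 10 of the 23995 rows, because a second row carried the symbol Itgam. That row (ENSMUSG00000108596.1) is described in the table as a predicted gene, is named Gm49368 in GENCODE M21, and is kept apart from Itgam here. All 10 rows passed the filter on low values, a normalised count of at least 10 in at least 3 libraries.

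Microglia were shaken off mixed glial cultures of neonatal mouse cortex and left unstimulated or treated for 16 h. The libraries labelled CB2-/- came from B6.Cg-Cnr2tm1Zim mice, a germline line in which the cannabinoid receptor gene Cnr2 was targeted, and wild-type (WT) libraries came from C57BL/6J mice. The treatments of each genotype were CpG (1 nmol/ml), PolyI:C, and LPS at 100 ng/ml given together with 20 ng/ml of interferon-γ (IFN-γ). LPS, PolyI:C and CpG DNA are ligands of different Toll-like receptors. Each treated group and the unstimulated CB2-/- group had 3 libraries. Unstimulated WT cells had 3 libraries numbered 2186 to 2188 and 3 numbered 3012 to 3014. All libraries labelled CB2-/- were numbered 2048 to 2059 and all treated WT libraries 3015 to 3023. Treated libraries of the 2 genotypes therefore differ in number series as well, and effects of genotype and of series on their levels cannot be told apart. The comparison of genotypes asks what CB2 contributes to microglial responses to such stimuli.

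Complement is a cascade of plasma and tissue proteins that tags surfaces and cell debris for removal. C1q, built from the chains encoded by C1qa, C1qb and C1qc, starts the classical pathway, which cleaves C4 and C2. Factor B, encoded by Cfb, is the protease of the alternative pathway, and both pathways converge on cleavage of C3. The fragments C3a and C5a signal through the receptors encoded by C3ar1 and C5ar1, while fragments of C3 left on a surface are bound by complement receptor 3, whose alpha chain CD11b is encoded by Itgam. In the brain, microglia are the main source of C1q, and C1q, C3 and complement receptor 3 are known for their part in the removal of synapses during development.

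In GENCODE M21 on GRCm38, the 3 C1q genes lie side by side on the minus strand at chr4:136895917-136898803 (C1qa), chr4:136880129-136886187 (C1qb) and chr4:136889804-136893065 (C1qc). The targeted gene Cnr2 is on the same chromosome. The part of sequence near Cnr2 in differences of the C1q genes between genotype labels was not tested. C3 lies at chr17:57203970-57228136, C4b at chr17:34728380-34743882 and Cfb at chr17:34856374-34862518, all on the minus strand. C3ar1 (chr6:122847138-122856161) and C5ar1 (chr7:16246743-16259540) are on the minus strand and Itgam (chr7:128062640-128118491) on the plus strand. Gm49368 (chr7:128062683-128128160) overlaps Itgam on the same strand, and the gene model Gm20547 overlaps Cfb in the same way, so reads of such pairs may have been split. C4b has a near-identical neighbour, C4a, and its values are uncertain for that reason.

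Promoter sequences from RefSeq (GRCm38.p6) were matched for 6 of the 9 symbols, C1qb, C1qc, C3, C3ar1, C5ar1 and Itgam. The 250 bases before the start are shown for C3, the member that rose in all stimulus comparisons, and for Itgam, whose response differed between the genotype labels for all 3 stimuli. They come from chr17:57228137-57228386 (minus strand) and chr7:128062390-128062639 (plus strand). No letters are in capitals because neither holds a match to the motifs searched.
C3: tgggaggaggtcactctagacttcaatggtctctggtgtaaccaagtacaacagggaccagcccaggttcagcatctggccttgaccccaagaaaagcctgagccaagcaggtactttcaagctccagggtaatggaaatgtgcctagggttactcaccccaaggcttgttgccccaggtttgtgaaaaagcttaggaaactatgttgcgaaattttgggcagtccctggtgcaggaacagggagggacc
Itgam: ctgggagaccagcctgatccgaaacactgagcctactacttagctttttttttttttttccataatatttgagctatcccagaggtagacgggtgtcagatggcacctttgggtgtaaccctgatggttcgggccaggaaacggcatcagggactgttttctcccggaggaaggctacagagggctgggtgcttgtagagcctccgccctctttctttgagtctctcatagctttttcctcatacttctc
The motifs, searched on both strands, were the interferon-stimulated response element (GAAA, any 2 bases, GAAA), the gamma-activated site (TTCNNNGAA), the NF-κB consensus and CCAAT. Among the 6 promoters the searches gave 1 match to the NF-κB consensus, in C1qc, and 1 match to CCAAT, in C5ar1 on the opposite strand. Each match is shown in capitals within 30 bases, from chr4:136892936-136892965 and chr7:16259479-16259508 (both minus strand). They lie before the start in RefSeq, but inside the gene by the GENCODE M21 spans given above, where the start lies further upstream.
C1qc: tgtgggggagGGGGCTCTCCctgctctggg
C5ar1: gctcctcctcagATTGGggaacgaggccag
Of 32536 RefSeq windows of this length, 2.98% held the interferon-stimulated response element, 7.04% the gamma-activated site, 7.28% the NF-κB consensus and 33.8% CCAAT.

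Normalised counts summed over genes to between 6341299 and 14151980 in a library, and 13628 to 20643 of the 23995 genes were above 0. They are the authors' counts scaled between libraries. In WT the sums were higher with LPS/IFN-γ (9322047 to 9471790) and PolyI:C (8403661 to 9473363) than in unstimulated libraries 3012 to 3014 (6506348 to 6662554). With CpG in WT they were 6644445 to 6917972. In libraries labelled CB2-/- they were 7543453 to 9097058 with LPS/IFN-γ, overlapping 6341299 to 8122788 unstimulated. The part of these sums in the changes of the members was not tested. Cnr2, the targeted gene, was detected in every library labelled CB2-/-, at 317 to 454 unstimulated, 217 to 234 with LPS/IFN-γ, 329 to 412 with PolyI:C and 287 to 319.5 with CpG. In WT it was at 18.3 to 22 with LPS/IFN-γ, 7.32 to 16.2 with PolyI:C, 0 to 16.1 with CpG, 172 to 231 in unstimulated libraries 2186 to 2188 and 178 to 233 in 3012 to 3014. A value per gene does not show which part of Cnr2 was deleted, so the genotype is given as labelled throughout. All 10 microglia markers checked were above 0 in every group. Their summed level was lower in treated cells, for example 14480 to 15080 with LPS/IFN-γ against 32300 to 34190 unstimulated in libraries labelled CB2-/-, and 18970 to 19310 against 72800 to 77790 in WT. In these bulk libraries, fewer cells of a type and less RNA per cell cannot be told apart.

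**Figure D1:**
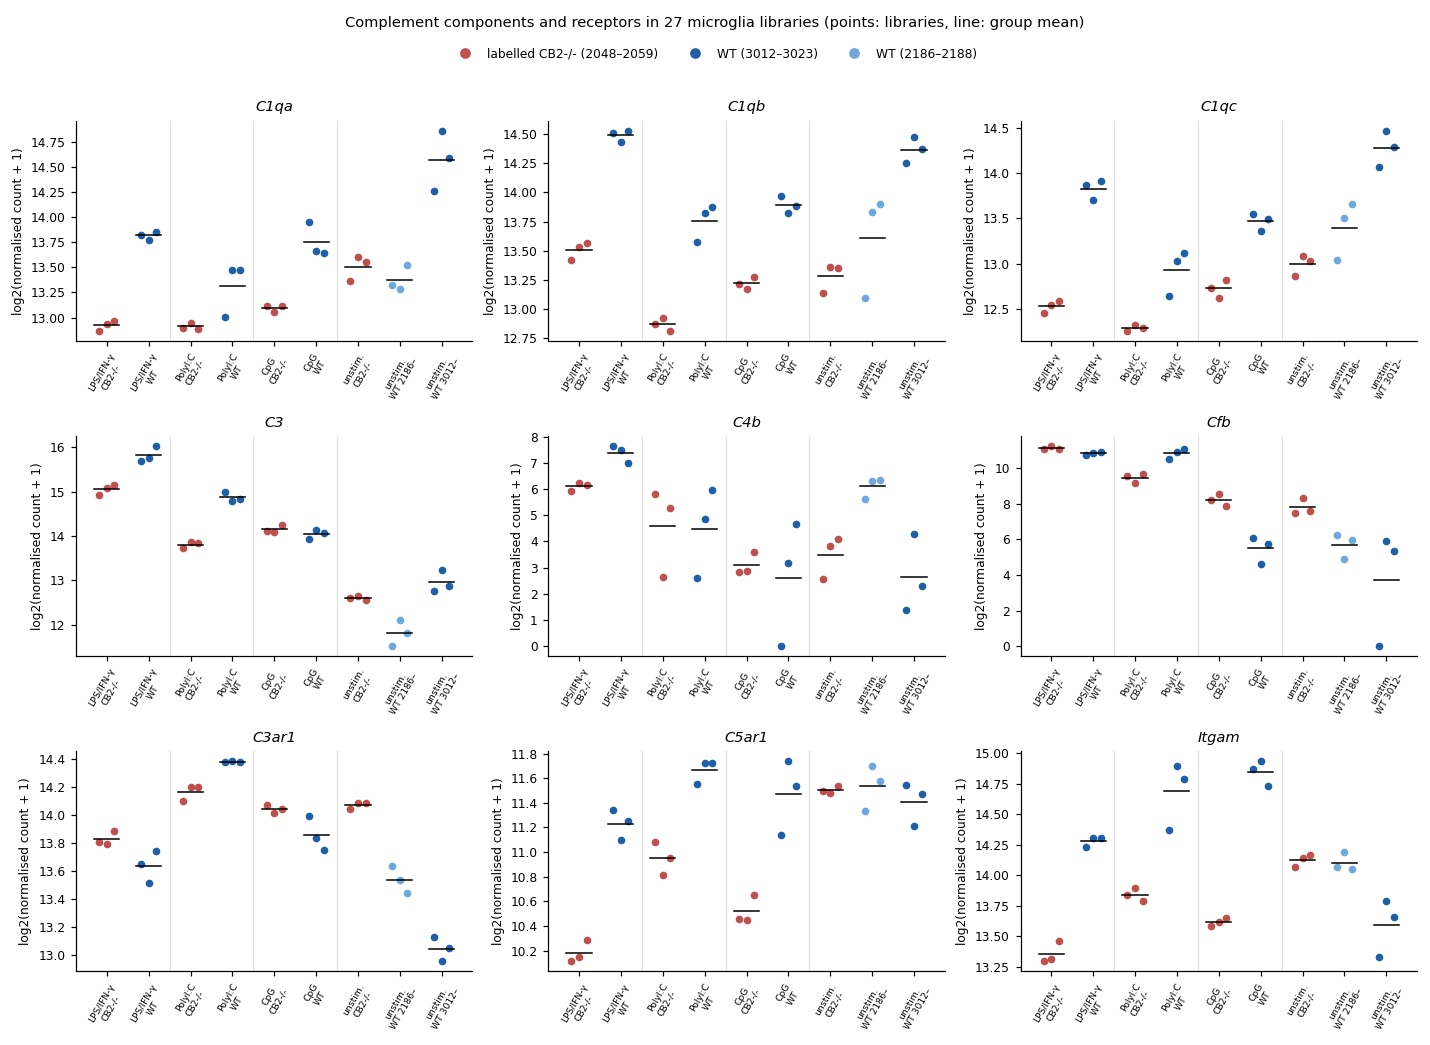
Normalised counts of the 9 complement genes in each library, as log2(normalised count + 1), with 1 panel per gene and its own vertical scale; points are libraries, black lines group means, red the libraries labelled CB2-/-, dark blue WT 3012 to 3023 and light blue WT 2186 to 2188. C3 is higher in every treated library than in any unstimulated one, Itgam is above all unstimulated libraries in each treated WT library and below the unstimulated CB2-/- libraries in each treated library labelled CB2-/-.

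C3 rose and C1qa fell in all 6 comparisons of a stimulus with unstimulated cells. Itgam fell with LPS/IFN-γ and CpG in libraries labelled CB2-/- and rose with all 3 stimuli in WT, although its WT value with LPS/IFN-γ was -0.23 under quantile scaling. With LPS/IFN-γ, 2 of the 10 rows rose and 5 fell in libraries labelled CB2-/-, where 12.8% of the 14668 tested genes were called higher and 10.9% lower at an adjusted p under 0.05 (limma, Benjamini-Hochberg). In WT, 6 rose and 2 fell, against 21.7% and 18% of all genes. With PolyI:C, 1 rose and 3 fell in libraries labelled CB2-/- (5.11% and 3.44% of all genes), and 5 rose and 3 fell in WT (21.2% and 19.9%). With CpG, 1 rose and 3 fell in libraries labelled CB2-/- (6.82% and 7.44%), and 3 rose and 3 fell in WT (16.5% and 19.6%). Counts of 1 row, and the 2 rows that fell with LPS/IFN-γ in WT, are near the share of all genes. Not far above it are the 2 rows that rose with LPS/IFN-γ in libraries labelled CB2-/-. The same holds for the 3 that fell with PolyI:C in WT, and for the 3 that rose and the 3 that fell with CpG in WT. The median log2 fold change over the 10 rows was -0.02, -0.16 and -0.16 for LPS/IFN-γ, PolyI:C and CpG in libraries labelled CB2-/-, and 0.64, 1.22 and 0.01 in WT. Over all tested genes the corresponding medians lay between -0.09 and 0.05.

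**Figure D2:**
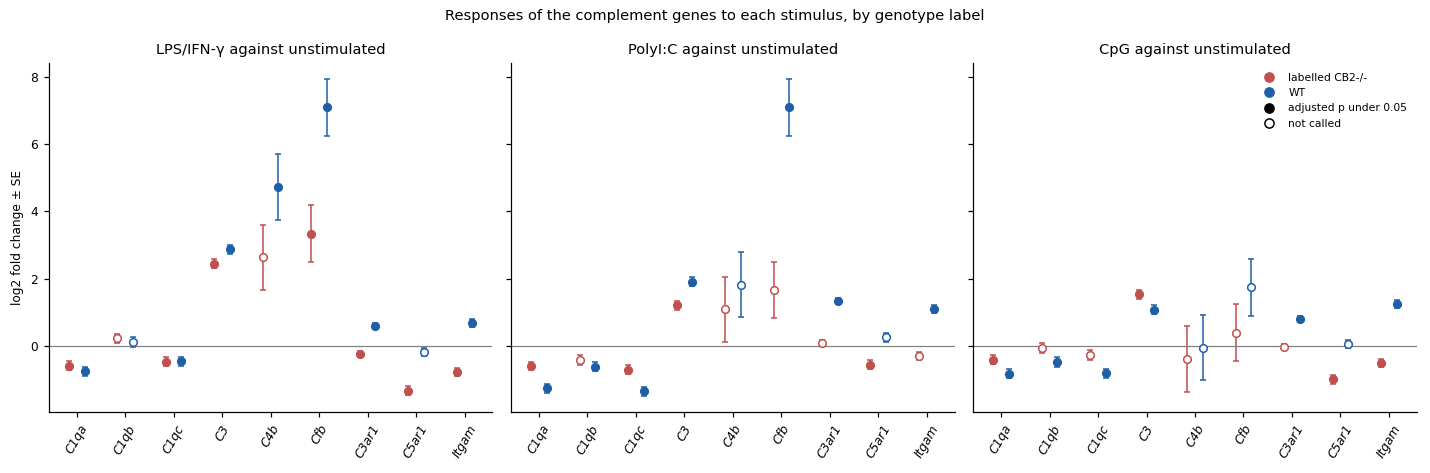
Log2 fold change of each complement gene with each stimulus against the unstimulated libraries of the same genotype label, with SE bars from the fit; red is CB2-/-, blue is WT, filled points have an adjusted p under 0.05 and open points do not. C3 is above 0 in all 6 comparisons, and for C3ar1 and Itgam the WT points lie above 0 in all 3 panels, though with LPS/IFN-γ both are below 0 under quantile scaling (-0.43 and -0.23).

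C1q chains. C1qa and C1qc fell with each stimulus in WT. Among libraries labelled CB2-/-, C1qa fell with each stimulus, and C1qc with LPS/IFN-γ and PolyI:C. C1qa had 7472, 7857 and 7993 normalised counts with LPS/IFN-γ, 7639.9, 7896 and 7586 with PolyI:C and 8892, 8509 and 8842 under CpG in libraries labelled CB2-/-, against 10508, 12423 and 11976 unstimulated. In WT it had 14516, 13999 and 14759 with LPS/IFN-γ, 8198, 11387 and 11344 with PolyI:C and 15835, 12994 and 12768 under CpG, against 19637, 29724 and 24579 in unstimulated libraries 3012 to 3014. No treated library reached the lowest unstimulated library of its own genotype and series. The log2 fold changes of C1qa were -0.58 ± 0.13, -0.59 ± 0.13 and -0.41 ± 0.13 (SE) for LPS/IFN-γ, PolyI:C and CpG in libraries labelled CB2-/-, with limma adjusted p of 0.00181, 0.00489 and 0.0385. In WT they were -0.75 ± 0.13, -1.25 ± 0.13 and -0.82 ± 0.13, with limma adjusted p of 5.48e-05, 2.89e-08 and 2.56e-05. The call with CpG in libraries labelled CB2-/- was lost without any 1 of the 3 treated libraries or replicate 2 or 3 of the unstimulated ones (-0.42 to -0.36, limma adjusted p 0.0816 to 0.147).

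C1qc changed by -0.46 ± 0.14, -0.70 ± 0.14 and -0.27 ± 0.14 in libraries labelled CB2-/- in the same order (limma adjusted p 0.0146, 0.00145 and 0.251). In WT it changed by -0.45 ± 0.14, -1.34 ± 0.14 and -0.81 ± 0.14 (limma adjusted p 0.0106, 1.63e-08 and 4.53e-05). Its normalised counts were 4909.9 to 5151 with PolyI:C in libraries labelled CB2-/-, against 7475 to 8695 unstimulated, and 6398 to 8879 with PolyI:C in WT, against 17143 to 22645 in libraries 3012 to 3014. PolyI:C gave the lowest group mean of C1qc in both genotypes. The fall with LPS/IFN-γ was near the threshold. It was lost in libraries labelled CB2-/- without replicate 1 of the treated (-0.42, limma adjusted p 0.0618) or replicate 2 (-0.42, 0.0641) or 3 (-0.44, 0.05) of the unstimulated libraries. In WT it was lost without replicate 2 of the treated (-0.39, 0.0545) or of the unstimulated libraries (-0.35, 0.064). With all 6 unstimulated WT libraries as 1 group, the WT changes of C1qa and C1qc were -0.16 and -0.01 with LPS/IFN-γ (limma adjusted p 0.647 and 0.968) and -0.22 and -0.37 with CpG (0.516 and 0.152).

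C1qb, unlike C1qa and C1qc, was not called with LPS/IFN-γ under either label. It had 11003, 11849 and 12166 normalised counts with LPS/IFN-γ in libraries labelled CB2-/-, against 9001, 10530.3 and 10456 unstimulated. In WT it had 23306, 22038 and 23647, against 19488, 22766 and 21228 in libraries 3012 to 3014. The ranges lay apart in libraries labelled CB2-/- and overlapped in WT, and neither change passed the test (0.23 ± 0.14, limma adjusted p 0.288, and 0.12 ± 0.14, 0.529). C1qb fell in WT with PolyI:C (-0.61 ± 0.14, limma adjusted p 0.00106) and CpG (-0.47 ± 0.14, 0.0102). The changes with PolyI:C and CpG in libraries labelled CB2-/- were -0.41 ± 0.14 and -0.06 ± 0.14 (limma adjusted p 0.0739 and 0.869). Under quantile scaling the change of C1qb with LPS/IFN-γ took the opposite direction under both labels, at -0.14 in libraries labelled CB2-/- and -0.82 in WT (limma adjusted p 0.411 and 1.22e-06). With all 6 unstimulated WT libraries as 1 group it was 0.50 (0.0342), and the WT changes with PolyI:C and CpG were -0.23 and -0.09 (0.338 and 0.734).

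Within a library the ratio of 2 chain genes does not depend on the factor by which the library was scaled. The log2 ratio of C1qb to C1qa was 0.56 to 0.61 with LPS/IFN-γ in libraries labelled CB2-/-, against -0.24 to -0.20 unstimulated, and 0.65 to 0.68 with LPS/IFN-γ in WT, against -0.38 to -0.01 in libraries 3012 to 3014. Against unstimulated cells the ratio was higher in libraries labelled CB2-/- by 0.80 for LPS/IFN-γ, 0.18 for PolyI:C and 0.35 for CpG. In WT it was higher by 0.875, 0.64 and 0.34 in the same order. All 6 pairs of groups lay apart, with an exact permutation p of 0.1 each (two-sided, unadjusted, 16 ratio tests in all), the smallest that 3 against 3 libraries allow. The ratio of C1qc to C1qa moved less, by 0.12, -0.11 and 0.14 in libraries labelled CB2-/- and by 0.30, -0.09 and 0.01 in WT. As shares of the 3 genes' summed values, C1qb made up 46.0% ± 0.3 with LPS/IFN-γ in libraries labelled CB2-/-, against 33.5% ± 0.4 unstimulated (SD, n = 3). In WT the share was 44.3% ± 0.3 with LPS/IFN-γ, against 32.4% ± 2.2 in libraries 3012 to 3014.

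**Figure D3:**
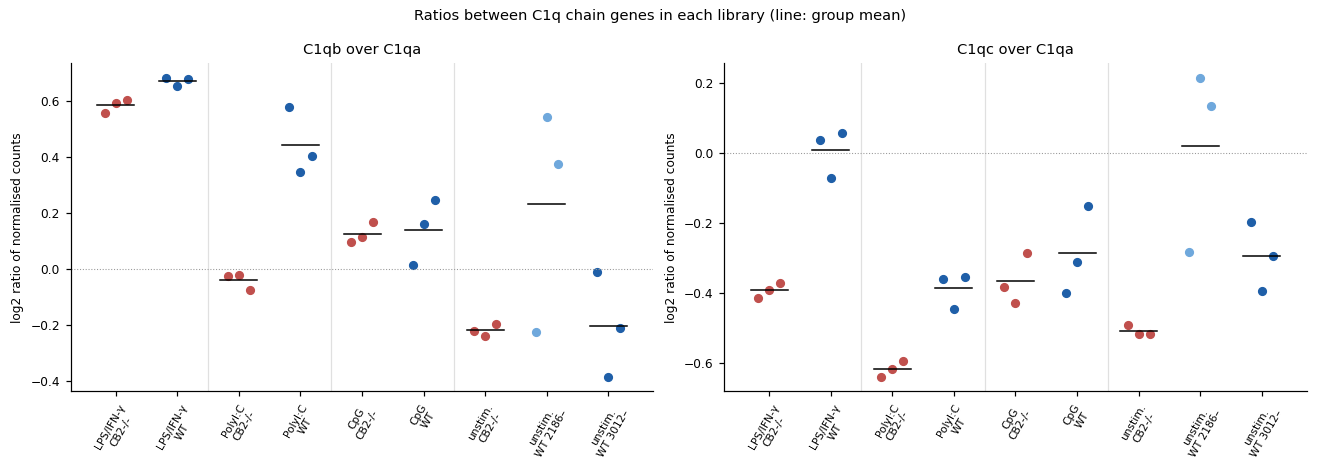
Log2 ratios of normalised counts of C1qb over C1qa (left) and C1qc over C1qa (right) in each library, with points as libraries and black lines as group means; red is labelled CB2-/-, dark blue WT 3012 to 3023, light blue WT 2186 to 2188. The C1qb ratio lies between 0.56 and 0.68 in all 6 libraries treated with LPS/IFN-γ, while the 3 WT libraries 2186 to 2188 are spread from -0.22 to 0.54.

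C4b, the murine C4 component of the classical pathway, was low in all libraries and rose in WT with LPS/IFN-γ. It had 60.4, 74.5 and 71.3 normalised counts with LPS/IFN-γ in libraries labelled CB2-/-, against 4.85, 13.2 and 15.9 unstimulated. In WT it had 201, 179.8 and 125 with LPS/IFN-γ, against 1.58, 18.7 and 3.91 in libraries 3012 to 3014. The treated and unstimulated ranges lay apart in both genotypes. The log2 fold change was 2.63 ± 0.97 in libraries labelled CB2-/- (limma adjusted p 0.052) and 4.72 ± 0.97 in WT (0.00035). The change in libraries labelled CB2-/- was called under 7 alternatives, among them a pseudocount of 10 (1.92, limma adjusted p 0.00732), quantile scaling (2.53, 0.0172), only the groups compared (2.63, 0.00372) and the batch-corrected table (1.77, 0.00215). It was also called in 8 of the 27 fits that left out 1 library (lowest limma adjusted p 0.017), none of which left out a library of the 2 groups compared. With PolyI:C the normalised counts ran from 5.28 to 54.7 in libraries labelled CB2-/- and from 5.11 to 61.2 in WT, overlapping the unstimulated ranges, and with CpG from 6.18 to 11.1 and from 0 to 24.6. C4b was also at 48.7 to 81.5 in unstimulated WT libraries 2186 to 2188. Astrocyte markers, all 10 of which were in the table, summed to 1649 to 2688 in those 3 libraries, against 209 to 1120 in libraries 3012 to 3014 and 724 to 879 in WT with LPS/IFN-γ, and the part of these markers in the C4b values was not tested.

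C3, the central component of the cascade, rose with all 3 stimuli under both genotype labels. Libraries labelled CB2-/- had 31089.5, 34581 and 36405 normalised counts with LPS/IFN-γ, 13487, 14857 and 14683 with PolyI:C and 17563, 17472 and 19456 under CpG, against 6219, 6433 and 5989.8 unstimulated. WT libraries had 53222, 55257 and 67069 with LPS/IFN-γ, 32681, 28389 and 29068 with PolyI:C and 15575, 18086 and 17102 under CpG, against 6959, 9671 and 7482 in unstimulated libraries 3012 to 3014. No treated library overlapped an unstimulated one. The means were 5.48, 2.31 and 2.92 times the unstimulated mean for LPS/IFN-γ, PolyI:C and CpG in libraries labelled CB2-/-, and 7.28, 3.74 and 2.11 times in WT. The log2 fold changes were 2.45 ± 0.13, 1.21 ± 0.13 and 1.55 ± 0.13 in libraries labelled CB2-/- (limma adjusted p 1.07e-12, 1.93e-06 and 4.81e-09). In WT they were 2.87 ± 0.13, 1.91 ± 0.13 and 1.09 ± 0.13 (1.05e-14, 1.91e-11 and 5.24e-07).

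The stimuli were also compared with each other for C3. In libraries labelled CB2-/-, PolyI:C gave lower values than CpG in all 3 libraries (-0.34 ± 0.13, limma adjusted p 0.106). In WT, PolyI:C gave higher values than CpG, by 0.83 ± 0.13 (3.17e-05), a difference of -0.0019 after quantile scaling. LPS/IFN-γ gave more C3 than PolyI:C, by 1.24 ± 0.13 in libraries labelled CB2-/- and 0.96 ± 0.13 in WT (limma adjusted p 4.45e-07 and 2.24e-05), and more than CpG, by 0.90 ± 0.13 and 1.79 ± 0.13 (2.63e-05 and 1.13e-10). Ordered by mean, C3 was highest in WT with LPS/IFN-γ. The ranges of libraries labelled CB2-/- with LPS/IFN-γ and WT with PolyI:C came next and overlapped, as did both CpG groups after them.

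Cfb, encoding factor B, was the member with the largest ratio of treated to unstimulated means with LPS/IFN-γ and PolyI:C under both labels. With CpG that member was C3 in libraries labelled CB2-/- (2.92 times) and Itgam in WT (2.37 times), where Cfb stood at 1.30 and 1.47 times. In libraries labelled CB2-/- it had 2144, 2444 and 2185 normalised counts with LPS/IFN-γ, 761, 575 and 808 with PolyI:C and 294, 373 and 229.5 under CpG, against 178, 322 and 192 unstimulated. In WT it had 1713, 1864 and 1898 with LPS/IFN-γ, 1455, 1937 and 2125 with PolyI:C and 66.5, 23.7 and 53 under CpG, against 0, 58.4 and 39.3 in libraries 3012 to 3014. Both LPS/IFN-γ groups and both PolyI:C groups lay apart from their unstimulated libraries, and both CpG groups overlapped them. The means with LPS/IFN-γ and PolyI:C were 9.78 and 3.10 times the unstimulated mean in libraries labelled CB2-/-, and 56.1 and 56.5 times in WT. WT replicate 1 of libraries 3012 to 3014, in which Cfb was listed at 0, decided several of these values.

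With that library in the fit, the log2 fold changes of Cfb with LPS/IFN-γ were 3.33 ± 0.84 in libraries labelled CB2-/- and 7.09 ± 0.84 in WT (limma adjusted p 0.0044 and 2.03e-07). Without it they were 3.33 and 5.22 (3.40e-08 and 6.07e-11). With PolyI:C they were 1.66 ± 0.84 and 7.09 ± 0.84 (limma adjusted p 0.273 and 2.00e-07), and without that library 1.66 and 5.22 (0.00166 and 6.16e-11). The change with PolyI:C in libraries labelled CB2-/- was called only when the listed 0 was left out, or with a pseudocount of 10 (1.62, 0.0214), the groups compared alone (1.66, 0.00977) or the batch-corrected table (1.30, 0.00318). The changes with CpG were 0.40 ± 0.84 in libraries labelled CB2-/- and 1.74 ± 0.84 in WT (0.86 and 0.113). The WT value with CpG was -0.13 without replicate 1 and was called without replicate 2 (2.82, 0.00938) or 3 (2.54, 0.032).

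C3ar1, encoding the C3a receptor, rose with each stimulus in WT, with LPS/IFN-γ in the opposite direction under quantile scaling (-0.43). Libraries labelled CB2-/- had 14319, 14175 and 15084 normalised counts with LPS/IFN-γ, 17542, 18798 and 18739 with PolyI:C and 17181, 16554 and 16844 under CpG, against 16884, 17351 and 17373 unstimulated. WT libraries had 12834, 11711 and 13714 with LPS/IFN-γ, 21228, 21358 and 21263 with PolyI:C and 16264, 14576 and 13763 under CpG, against 8951, 7929.9 and 8452 in libraries 3012 to 3014. All treated WT libraries lay above the unstimulated ones of their series. The WT log2 fold changes were 1.34 ± 0.09 with PolyI:C and 0.81 ± 0.09 with CpG (limma adjusted p 4.06e-12 and 4.39e-08). With LPS/IFN-γ the WT change was 0.59 ± 0.09 (3.75e-06), and it was -0.43 (0.0061) under quantile scaling, which turned its direction. In libraries labelled CB2-/- C3ar1 fell with LPS/IFN-γ by 0.24 ± 0.09 on the log2 scale (limma adjusted p 0.0391), and the changes with PolyI:C and CpG were 0.09 ± 0.09 and -0.03 ± 0.09 (0.606 and 0.909). That fall was lost without any of the 6 libraries compared or WT replicate 1 with LPS/IFN-γ (-0.27 to -0.23, limma adjusted p 0.0502 to 0.125).

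C5ar1, encoding the C5a receptor, fell with each stimulus in libraries labelled CB2-/-. It had 1106, 1134 and 1250.0 normalised counts there with LPS/IFN-γ, 2167, 1804 and 1985 with PolyI:C and 1401, 1392 and 1611 under CpG, against 2888, 2850.5 and 2977 unstimulated, with no overlap. WT libraries had 2596, 2189 and 2445 with LPS/IFN-γ, 2999, 3388 and 3375 with PolyI:C and 2253, 3418 and 2968 under CpG, against 2981, 2375 and 2834 in libraries 3012 to 3014. The WT groups with LPS/IFN-γ and CpG overlapped the unstimulated libraries. The log2 fold changes in libraries labelled CB2-/- were -1.32 ± 0.13, -0.55 ± 0.13 and -0.99 ± 0.13 for LPS/IFN-γ, PolyI:C and CpG (limma adjusted p 1.74e-08, 0.00653 and 2.93e-06). In WT they were -0.18 ± 0.13, 0.26 ± 0.13 and 0.06 ± 0.13 (0.296, 0.114 and 0.757), with 95% intervals of -0.44 to 0.09, -0.01 to 0.52 and -0.20 to 0.33. Under quantile scaling the WT values with LPS/IFN-γ and PolyI:C were -0.90 and -0.48 (8.92e-06 and 0.00755).

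Itgam, encoding CD11b, fell with LPS/IFN-γ and CpG in libraries labelled CB2-/- and rose with each stimulus in WT, where the LPS/IFN-γ value was -0.23 under quantile scaling. Libraries labelled CB2-/- had 10033, 10161 and 11252 normalised counts with LPS/IFN-γ, 14629.6, 15226 and 14134 with PolyI:C and 12269.8, 12553 and 12860.4 under CpG, against 17122, 18017 and 18329.9 unstimulated. WT libraries had 19177, 20239.9 and 20218 with LPS/IFN-γ, 21211, 30538 and 28348 with PolyI:C and 29887, 31357 and 27227 under CpG, against 10284, 14121 and 12883 in libraries 3012 to 3014. Every treated library labelled CB2-/- lay below the unstimulated ones of that label, and every treated WT library above both sets of unstimulated WT libraries. The log2 fold changes were -0.77 ± 0.12, -0.28 ± 0.12 and -0.50 ± 0.12 in libraries labelled CB2-/- (limma adjusted p 2.10e-05, 0.166 and 0.00379). In WT they were 0.69 ± 0.12, 1.10 ± 0.12 and 1.26 ± 0.12 (4.27e-05, 4.28e-08 and 7.75e-09), of which the change with LPS/IFN-γ was -0.23 (0.0777) and that with PolyI:C 0.25 (0.0558) under quantile scaling. With all 6 unstimulated WT libraries as 1 group, the change with CpG in libraries labelled CB2-/- had a limma adjusted p of 0.0558. Markers of monocytes and neutrophils, of which 6 of 8 were in the table, moved with the WT values. They summed to 77.5 to 103.6 normalised counts with LPS/IFN-γ, 258.9 to 386.3 with PolyI:C and 291.2 to 399.2 under CpG in WT, against 29.98 to 45.2 in libraries 3012 to 3014. The sums in libraries labelled CB2-/- were 53.0 to 67.4, 38.4 to 51.1 and 56.9 to 84.1, against 21.1 to 55.3 unstimulated. S100a8 was most of the WT sum with PolyI:C and CpG (means of 263 and 304, against 15.4), while S100a9 and Ngp were listed at 0 in every treated WT library. The part of these markers in the changes of Itgam and the other receptor genes was not tested.

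The row of Gm49368 was low, at 0 to 210.5 normalised counts over the 27 libraries. It was higher in WT with PolyI:C (178, 107 and 210.5) and LPS/IFN-γ (122, 94.8 and 84.1) than in unstimulated WT libraries 3012 to 3014 (15.6, 1.82 and 41.1), by 3.67 ± 0.94 and 2.996 ± 0.94 (limma adjusted p 0.0027 and 0.013). The call with LPS/IFN-γ was lost without replicate 2 of the unstimulated libraries (1.92, 0.114). In libraries labelled CB2-/- its changes were between -0.03 and 0.21, and none was called. Across the 27 libraries its log2 values had a Pearson r of -0.04 with those of Itgam, a description over libraries that fall into groups and differ in depth.

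The difference between the responses of the 2 genotype labels was tested for each stimulus as the response of libraries labelled CB2-/- minus the WT response. Itgam, C5ar1 and C3ar1 had lower responses in libraries labelled CB2-/- for all 3 stimuli. For LPS/IFN-γ, 0 of 10 rows were called higher and 4 lower, against 3.98% and 8.36% of all genes. For PolyI:C 2 were higher and 6 lower, against 10.8% and 13.9%, and for CpG 0 were higher and 3 lower, against 6.11% and 5.66%. The differences for Itgam were -1.46 ± 0.17, -1.38 ± 0.17 and -1.76 ± 0.17 for LPS/IFN-γ, PolyI:C and CpG (limma adjusted p 1.55e-06, 9.93e-07 and 1.97e-07). C5ar1 gave -1.14 ± 0.18, -0.81 ± 0.18 and -1.05 ± 0.18 (9.18e-05, 0.00158 and 3.41e-04), and C3ar1 gave -0.84 ± 0.12, -1.24 ± 0.12 and -0.84 ± 0.12 (2.98e-05, 3.73e-08 and 4.11e-05).

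Itgam kept these calls under quantile scaling, with -0.9995, -0.64 and -1.79. Quantile scaling ended the calls of C3ar1 for LPS/IFN-γ (-0.20, limma adjusted p 0.529) and PolyI:C (-0.41, 0.0875) and of C5ar1 for PolyI:C (-0.22, 0.459). With all 6 unstimulated WT libraries as 1 group, the C3ar1 differences for LPS/IFN-γ and CpG were -0.59 and -0.60 (0.0566 and 0.0508).

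Among the components, Cfb and C3 had lower PolyI:C responses in libraries labelled CB2-/-, with differences of -5.42 ± 1.19 and -0.71 ± 0.19 (limma adjusted p 0.00135 and 0.0068). For C3 the quantile-scaled value was -0.11 (0.756). Without the library in which Cfb was listed at 0 its difference was -3.55 (9.22e-06). The LPS/IFN-γ difference of Cfb was -3.76 ± 1.19 (0.0389) and -1.89 (0.014) without that library. It was not called without any 1 of the 9 other libraries of the 2 LPS/IFN-γ groups or the unstimulated CB2-/- group (-3.92 to -3.49, limma adjusted p 0.0551 to 0.093). C1qa and C1qc fell less with PolyI:C in libraries labelled CB2-/-, by 0.66 ± 0.19 and 0.65 ± 0.19 (0.0103 and 0.0156), and with all 6 unstimulated WT libraries as 1 group these values were 0.07 and 0.21 (0.923 and 0.681). The other differences of components were not called. For LPS/IFN-γ they were 0.17 for C1qa, 0.10 for C1qb, -0.01 for C1qc, -0.42 for C3 and -2.09 for C4b (limma adjusted p 0.167 to 0.981). For PolyI:C they were 0.20 for C1qb and -0.74 for C4b (0.527 and 0.756). For CpG they were 0.41 for C1qa and for C1qb, 0.54 for C1qc, 0.46 for C3, -0.35 for C4b and -1.35 for Cfb (0.0709 to 0.916). Gm49368 gave -3.71 ± 1.33 for PolyI:C (0.0436), a call lost in 16 of the 27 fits that left out 1 library, with -3.91 to -2.63 (largest limma adjusted p 0.139).

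**Figure D4:**
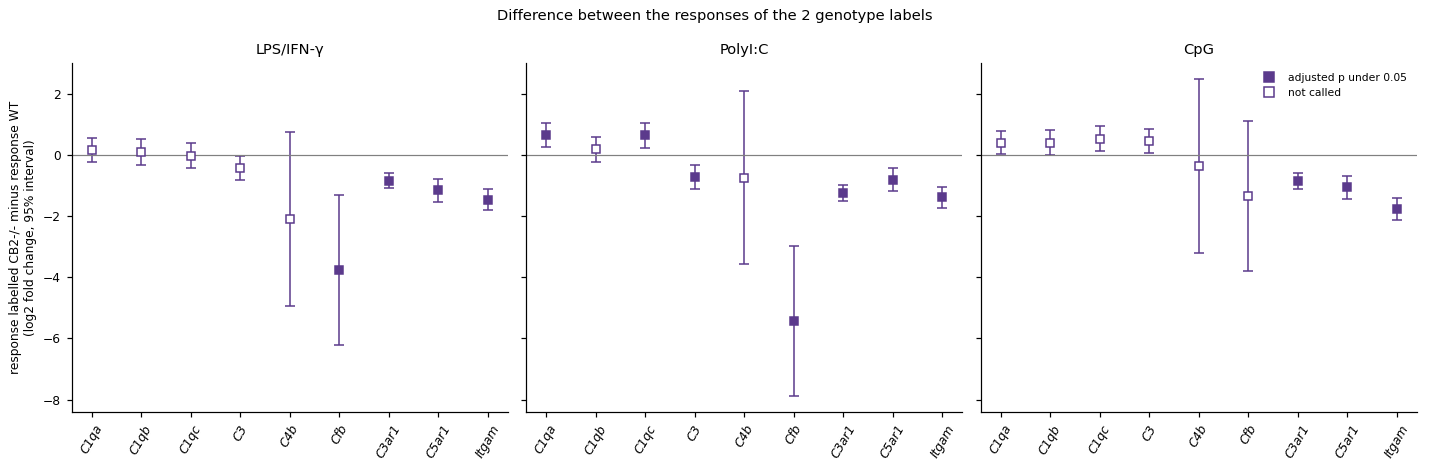
Response of libraries labelled CB2-/- minus response of WT libraries for each complement gene and stimulus, as log2 fold change with 95% intervals; filled squares have an adjusted p under 0.05. The squares of C3ar1, C5ar1 and Itgam lie below 0 in all 3 panels, and the intervals of C4b and Cfb are the widest.

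Unstimulated cells of the 2 genotypes were compared through WT libraries 2186 to 2188, whose numbers are nearest to those labelled CB2-/-. Whether these were prepared together is not given, so genotype and number series cannot be told apart here either. Of the 10 rows 2 were called, both higher in libraries labelled CB2-/-, where 6.25% of all genes were called higher and 3.65% lower. C3 had 6219, 6433 and 5989.8 normalised counts in libraries labelled CB2-/-, against 2925, 4384 and 3616 in WT (0.79 ± 0.13, limma adjusted p 2.94e-04). C3ar1 had 16884, 17351 and 17373, against 12678, 11861 and 11111 (0.54 ± 0.09, 1.43e-04). Neither gene's groups overlapped. Cfb also lay apart, at 178 to 322 against 28.6 to 74.6 (2.11 ± 0.84, 0.119), and was called without the library in which it was listed at 0 (1.22e-04). C5ar1 and Itgam differed by -0.03 ± 0.13 and 0.02 ± 0.12 (0.921 and 0.958), with 95% intervals of -0.30 to 0.23 and -0.23 to 0.26. C4b lay apart in the other direction, at 4.85 to 15.9 against 48.7 to 81.5 (-2.62 ± 0.97, 0.0917). C1qa, C1qb and C1qc differed by 0.12 ± 0.13, -0.33 ± 0.14 and -0.40 ± 0.14 (limma adjusted p 0.624, 0.152 and 0.0618), with overlapping ranges. Without replicate 1 of WT 2186 to 2188, C1qb and C1qc were called lower in libraries labelled CB2-/- (-0.58 each, 2.47e-04 and 0.00287). C1qc was also called without WT PolyI:C replicate 1 (0.0348) and C4b without WT CpG replicate 1 (0.0336), libraries outside the comparison. Of the alternatives that kept every library, 3 called C1qb, 5 C1qc, 3 C4b, 6 Cfb and 1 Itgam. The difference of C3 was 0.22 (0.602) with all 6 unstimulated WT libraries as 1 group. Its direction depended on the WT set, because WT libraries 3012 to 3014, at 6959 to 9671, all lay above the libraries labelled CB2-/-. C3ar1 was higher in libraries labelled CB2-/- than in either WT set, with 7929.9 to 8951 in 3012 to 3014. Astrocyte markers summed to 216.5 to 312.2 in libraries labelled CB2-/- and to 1649 to 2688 in these WT libraries. Fibroblast and meningeal markers, with Fn1 as most of the sum, summed to 13580 to 14820 and 38080 to 60880, and the part of both lists in these differences was not tested.

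The 2 sets of unstimulated WT libraries differed from each other in 7 of the 10 rows, 3 higher and 4 lower in libraries 2186 to 2188 than in 3012 to 3014, where 6.33% of all genes were called higher and 5.66% lower. C3 differed by -1.15 ± 0.13 and C1qa, C1qb and C1qc by -1.19 ± 0.13, -0.76 ± 0.14 and -0.87 ± 0.14 (limma adjusted p 1.72e-06, 9.06e-07, 6.16e-04 and 8.86e-05). C3ar1, Itgam and C4b differed by 0.49 ± 0.09, 0.51 ± 0.12 and 3.45 ± 0.97 (2.90e-04, 0.00448 and 0.0197). Cfb, C5ar1 and Gm49368 differed by 1.96 ± 0.84, 0.13 ± 0.13 and 2.28 ± 0.94 (0.145, 0.598 and 0.126), and Cfb was called without replicate 2 of libraries 3012 to 3014 (3.03, 0.0149). C1qa, for example, had 10241, 9978 and 11798 normalised counts in libraries 2186 to 2188, against 19637, 29724 and 24579 in 3012 to 3014. Replicate 1 of libraries 2186 to 2188 had 8769 of C1qb, against 14548 and 15307 in the other two. The marker sums of the 2 sets differed as well. Microglia markers summed to 34780 to 51110 in libraries 2186 to 2188 and 72800 to 77790 in 3012 to 3014. Fibroblast and meningeal markers summed to 38080 to 60880 and 5168 to 31900 in the same order. The part of both lists in the differences between the WT sets was not tested. In the authors' batch-corrected table none of the 7 differences was called, and no label says what was corrected for. The call of C4b was lost without replicate 2 (3.35, 0.0657) or 3 (3.33, 0.0613) of libraries 2186 to 2188 and without replicate 1 (2.81, 0.115) or 3 (3.28, 0.0689) of 3012 to 3014.

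Pairs of stimuli were compared within each genotype label. With LPS/IFN-γ against PolyI:C, 2 rows were higher and 3 lower in libraries labelled CB2-/- (6.95% and 4.96% of all genes), and 4 higher and 3 lower in WT (5.35% and 3.91%). C1qb was higher with LPS/IFN-γ than with PolyI:C under both labels (0.64 ± 0.14 in libraries labelled CB2-/- and 0.73 ± 0.14 in WT, limma adjusted p 0.0026 and 9.79e-04), and so was C3 (1.24 ± 0.13 and 0.96 ± 0.13, 4.45e-07 and 2.24e-05). In WT C1qa and C1qc were also higher (0.50 ± 0.13 and 0.89 ± 0.14, limma adjusted p 0.0151 and 7.18e-05), with the call of C1qa lost without replicate 1 or 3 of the LPS/IFN-γ libraries or replicate 1 with PolyI:C (0.34 to 0.50, 0.0533 to 0.12). The receptor genes C3ar1, C5ar1 and Itgam were lower with LPS/IFN-γ, with differences of -0.34 ± 0.09, -0.77 ± 0.13 and -0.49 ± 0.12 in libraries labelled CB2-/- (0.00849, 1.44e-04 and 0.0064). In WT these values were -0.74 ± 0.09, -0.43 ± 0.13 and -0.41 ± 0.12 (1.57e-06, 0.032 and 0.0289). Of these WT values, the call of C5ar1 was lost without replicate 2 or 3 of either group (-0.45 to -0.37, limma adjusted p 0.0721 to 0.155), and that of Itgam without any treated LPS/IFN-γ library or replicate 2 or 3 with PolyI:C (-0.42 to -0.30, 0.0673 to 0.16). Not called were C1qa (0.01), C1qc (0.24), C4b (1.55) and Cfb (1.67) in libraries labelled CB2-/- (limma adjusted p 0.245 to 0.977), and C4b (2.90, 0.0641) and Cfb (0.0059, 1.0) in WT.

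With LPS/IFN-γ against CpG, 3 rows were higher and 0 lower in libraries labelled CB2-/- (6.36% and 3.82%), and 6 higher and 2 lower in WT (19.7% and 13.1%). C3, C4b and Cfb were higher with LPS/IFN-γ under both labels, by 0.90 ± 0.13, 3.02 ± 0.97 and 2.94 ± 0.84 in libraries labelled CB2-/- (limma adjusted p 2.63e-05, 0.0485 and 0.0237) and by 1.79 ± 0.13, 4.77 ± 0.97 and 5.35 ± 0.84 in WT (1.13e-10, 4.29e-04 and 1.93e-05). The call of C4b in libraries labelled CB2-/- was lost in 19 of the 27 fits that left out 1 library (largest limma adjusted p 0.138) and that of Cfb in 5, each without an LPS/IFN-γ library or CpG replicate 1 or 3 (0.0616 to 0.0916). In WT C1qb and C1qc were higher (0.60 ± 0.14 and 0.36 ± 0.14, limma adjusted p 0.00179 and 0.0467), Gm49368 was higher (3.40 ± 0.94, 0.00666), and C3ar1 and Itgam were lower (-0.22 ± 0.09 and -0.57 ± 0.12, 0.0499 and 5.52e-04). Of these WT calls, that of C1qc was lost in 18 and that of C3ar1 in 20 of the 27 fits, and that of Gm49368 without CpG replicate 2 (1.78, 0.0741). Quantile scaling turned C1qb (-0.30) and C1qc (-0.41). Not called were C1qa (-0.17), C1qb (0.29), C1qc (-0.20), C3ar1 (-0.22), C5ar1 (-0.33) and Itgam (-0.26) in libraries labelled CB2-/- (limma adjusted p 0.113 to 0.581), and C1qa (0.06, 0.756) and C5ar1 (-0.24, 0.165) in WT.

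With PolyI:C against CpG, 1 row was higher and 1 lower in libraries labelled CB2-/- (6.39% and 5.56%), and 4 higher and 2 lower in WT (17.6% and 12.5%). C5ar1 was higher with PolyI:C and C1qc lower in libraries labelled CB2-/- (0.43 ± 0.13 and -0.43 ± 0.14, limma adjusted p 0.0257 and 0.0381). The call of C1qc was lost without any of the 6 libraries compared (-0.48 to -0.39, 0.0559 to 0.147), and that of C5ar1 without replicate 1 or 3 with PolyI:C or replicate 1 or 2 with CpG (0.37 to 0.43, 0.0637 to 0.121). In WT Cfb, C3, C3ar1 and Gm49368 were higher with PolyI:C, by 5.34 ± 0.84, 0.83 ± 0.13, 0.52 ± 0.09 and 4.08 ± 0.94 (limma adjusted p 2.39e-05, 3.17e-05, 3.98e-05 and 0.00163), and under quantile scaling C3 and C3ar1 were at -0.0019 and -0.31. C1qa and C1qc were lower there, by -0.44 ± 0.13 and -0.54 ± 0.14 (0.0138 and 0.00399), with the call of C1qa lost without replicate 1 of either group (-0.28 and -0.34, 0.11 and 0.0751). Not called were C1qa (-0.18), C1qb (-0.35), C3 (-0.34), C4b (1.48), Cfb (1.27), C3ar1 (0.12) and Itgam (0.22) in libraries labelled CB2-/- (limma adjusted p 0.106 to 0.463), and C1qb (-0.14), C4b (1.87), C5ar1 (0.20) and Itgam (-0.16) in WT (0.161 to 0.524).

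Of 51 other complement genes listed, 26 were tested. With LPS/IFN-γ, 6 of the 26 rose and 8 fell in libraries labelled CB2-/-, where 12.8% of all genes rose and 10.9% fell, and 8 rose and 6 fell in WT (21.7% and 18% of all genes). With PolyI:C, 0 rose and 4 fell in libraries labelled CB2-/- (5.11% and 3.44%), and 4 rose and 5 fell in WT (21.2% and 19.9%), WT shares of the list below those of all genes. With CpG, 2 rose and 7 fell in libraries labelled CB2-/- (6.82% and 7.44%), and 5 rose and 13 fell in WT (16.5% and 19.6%). The medians over the 26 genes were -0.32, -0.07 and -0.44 in libraries labelled CB2-/- and -0.17, -0.44 and -0.74 in WT.

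Of the 7 genes tested in the classical and lectin pathway, C1s1, C1ra and C2 rose and Colec12 fell with LPS/IFN-γ under both labels. The call of C2 with LPS/IFN-γ in libraries labelled CB2-/- was lost with all 6 unstimulated WT libraries as 1 group (0.75, limma adjusted p 0.0671). With CpG in WT 6 of the 7 fell, where 19.6% of all genes did. Of these only Colec12 and C2 averaged 100 or more in the higher group. Over all lists, 18 genes were called with CpG in WT, and 12 to 18 when 1 library was left out. Colec12, encoding a membrane-bound collectin, averaged 1080 with LPS/IFN-γ and 1271 under CpG in libraries labelled CB2-/-, against 3068 unstimulated, and 933, 1215 with PolyI:C and 871 under CpG in WT, against 4175. These falls were -1.50 ± 0.19 and -1.27 ± 0.19 in libraries labelled CB2-/- (limma adjusted p 1.23e-06 and 2.38e-05) and -2.16 ± 0.19, -1.88 ± 0.19 and -2.26 ± 0.19 in WT (1.36e-09, 1.44e-08 and 1.15e-09). Its change with PolyI:C in libraries labelled CB2-/- was -0.30 (0.419), and the differences in response were called for PolyI:C (1.59 ± 0.27, 8.25e-05) and CpG (0.99 ± 0.27, 0.0169). The protease genes C1ra and C1s1 averaged 268 and 75.7 normalised counts in libraries labelled CB2-/-, against 26.2 and 5.35 unstimulated, and 393 and 136 in WT, against 76.8 and 7.55. The log2 fold changes in WT were 2.39 ± 0.89 for C1ra and 5.26 ± 1.18 for C1s1 (limma adjusted p 0.0341 and 8.43e-04). C2, whose product is cleaved by C1s, rose in WT with PolyI:C as well (2.02 ± 0.26, 6.38e-07) and fell there with CpG (-1.62 ± 0.26, 2.07e-05). Serping1, encoding the inhibitor of the C1 proteases, averaged 134 with LPS/IFN-γ against 8.11 unstimulated in libraries labelled CB2-/-, and 264 against 5.98 in WT (3.97 ± 0.87 and 5.90 ± 0.87, limma adjusted p 0.00122 and 5.37e-06). Beside these rises, the summed fibroblast and meningeal markers, with Fn1 as most of the sum, were at 721.8 to 916.8 with LPS/IFN-γ against 13580 to 14820 unstimulated in libraries labelled CB2-/-, and at 1946 to 2827 against 5168 to 31900 in WT. Of these markers Col1a1 averaged 10.97 against 12.03 in libraries labelled CB2-/- and 256 against 532 in WT. Their part in the changes of these genes was not tested.

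Trem2, encoding a lipid receptor that is also among the microglia markers, fell in all 6 stimulus comparisons. It averaged 463 with LPS/IFN-γ, 1502 with PolyI:C and 550.02 under CpG in libraries labelled CB2-/-, against 3400.3 unstimulated. In WT it averaged 433, 371 and 394, against 4739.7 in libraries 3012 to 3014. Its log2 fold changes ran from -2.88 to -1.18 in libraries labelled CB2-/- and from -3.77 to -3.45 in WT (limma adjusted p at most 0.00297). C5ar2, encoding the other C5a receptor, was called in 5 of the 6 comparisons, all lower, and its change with PolyI:C in libraries labelled CB2-/- was -0.81 (limma adjusted p 0.0606). Cfp, encoding properdin, which stabilises the convertase holding factor B, fell with LPS/IFN-γ and CpG in libraries labelled CB2-/- (-1.66 ± 0.21 and -1.35 ± 0.21, limma adjusted p 1.36e-06 and 4.29e-05). Its WT changes were 0.29 and 0.27 (0.29 and 0.36), and the differences between the responses were -1.96 ± 0.30 and -1.62 ± 0.30 (6.40e-05 and 6.78e-04). Cfp also differed between the unstimulated WT sets, with means of 1770 in libraries 2186 to 2188 and 3348 in 3012 to 3014 (-0.85 ± 0.21, limma adjusted p 0.00865). With PolyI:C Cfp rose in WT (0.55 ± 0.21, 0.0408), with -0.28 (0.315) under quantile scaling, and the difference between the responses was -0.94 ± 0.30 (0.0226). The WT call was lost without PolyI:C replicate 2 or 3 or replicate 1 of libraries 3012 to 3014 (0.22 to 0.45, limma adjusted p 0.147 to 0.378). The call of the difference was lost without any of these 3 or PolyI:C replicate 3 labelled CB2-/- (-0.88 to -0.61, 0.0511 to 0.0812) and under quantile scaling (-0.21, 0.678). Cr1l, encoding a membrane regulator of the C3 convertases in rodents, fell with each stimulus in libraries labelled CB2-/- (-0.42, -0.52 and -0.46 ± 0.13 each, limma adjusted p 0.0171, 0.01 and 0.0141). All 3 calls were lost without replicate 1 of the unstimulated libraries (-0.44 to -0.34, 0.0707 to 0.0978). Between unstimulated cells Cr1l averaged 698 in libraries labelled CB2-/- and 363 in WT 2186 to 2188 (0.94 ± 0.13, 1.65e-05). The unstimulated WT sets differed in Cr1l too, with 363 against 495 in libraries 3012 to 3014 (-0.44 ± 0.13, limma adjusted p 0.0215). C2 was also higher in unstimulated libraries labelled CB2-/- (442) than in WT 2186 to 2188 (195), by 1.20 ± 0.26 (0.00345).

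Itgb2 encodes the beta chain that pairs with CD11b in complement receptor 3. Its response was lower in libraries labelled CB2-/- for LPS/IFN-γ and CpG, with differences of -1.47 ± 0.19 and -0.99 ± 0.19 (limma adjusted p 5.28e-06 and 8.45e-04). Itgal, encoding the alpha chain CD11a that pairs with the same beta chain, rose in 5 of the 6 comparisons, with 2.16 ± 0.15 for LPS/IFN-γ in libraries labelled CB2-/- and 3.02 ± 0.15 in WT (4.59e-11 and 2.34e-14). Cd93, a receptor gene once proposed to bind C1q, fell by 3.28 ± 0.22 with LPS/IFN-γ and 3.48 ± 0.22 with CpG on the log2 scale in libraries labelled CB2-/- (3.32e-11 and 1.77e-11), and its responses there minus those in WT were -2.29 ± 0.31 and -1.80 ± 0.31 (1.17e-05 and 3.01e-04). Between the 2 unstimulated WT sets Cd93 averaged 1337 in WT libraries 2186 to 2188 and 274 in 3012 to 3014 (2.27 ± 0.22, limma adjusted p 1.08e-07), and WT libraries with LPS/IFN-γ averaged 135. Neither difference of Cd93 was called with all 6 unstimulated WT libraries as 1 group (-1.16 and -0.67, 0.355 and 0.608).

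Lrp1, encoding a large endocytic receptor that pairs with calreticulin on phagocytes, fell in 4 of the 6 comparisons. With PolyI:C in WT it averaged 2278, against 12736 in libraries 3012 to 3014 (-2.57 ± 0.21, limma adjusted p 2.37e-10). Its responses in libraries labelled CB2-/- minus those in WT were 0.92 ± 0.29, 2.38 ± 0.29 and 1.11 ± 0.29 for LPS/IFN-γ, PolyI:C and CpG (0.0382, 1.08e-06 and 0.013). The call for LPS/IFN-γ was lost in 8 of the 27 fits that left out 1 library (largest limma adjusted p 0.0986). Lrp1 also averaged 28322 in WT libraries 2186 to 2188, against 12736 (1.14 ± 0.21, 4.23e-04). Calr, encoding calreticulin, a chaperone that can bind C1q, rose in 5 of the 6 comparisons. It averaged 6569 with LPS/IFN-γ and 4649 with CpG in libraries labelled CB2-/- (0.51 ± 0.12, limma adjusted p 0.00763), and 4218 with PolyI:C and 6405 with CpG in WT (-0.61 ± 0.12, 5.13e-04). Itgax, encoding CD11c, the alpha chain of complement receptor 4, averaged 155 with LPS/IFN-γ and 144 with CpG in WT, against 26.4 (2.57 ± 0.62 and 2.34 ± 0.62, limma adjusted p 0.00163 and 0.00427). Its difference in the LPS/IFN-γ response was -2.76 ± 0.87 (0.0389), a call lost in 9 of the 27 fits (largest 0.0975). Sirpa, encoding a receptor of CD47, averaged 10329 with PolyI:C and 7610 with CpG in WT (0.47 ± 0.12, limma adjusted p 0.0052), and 6486 in WT libraries 2186 to 2188 against 9664 in 3012 to 3014 (-0.57 ± 0.12, 0.00299).

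**Figure D5:**
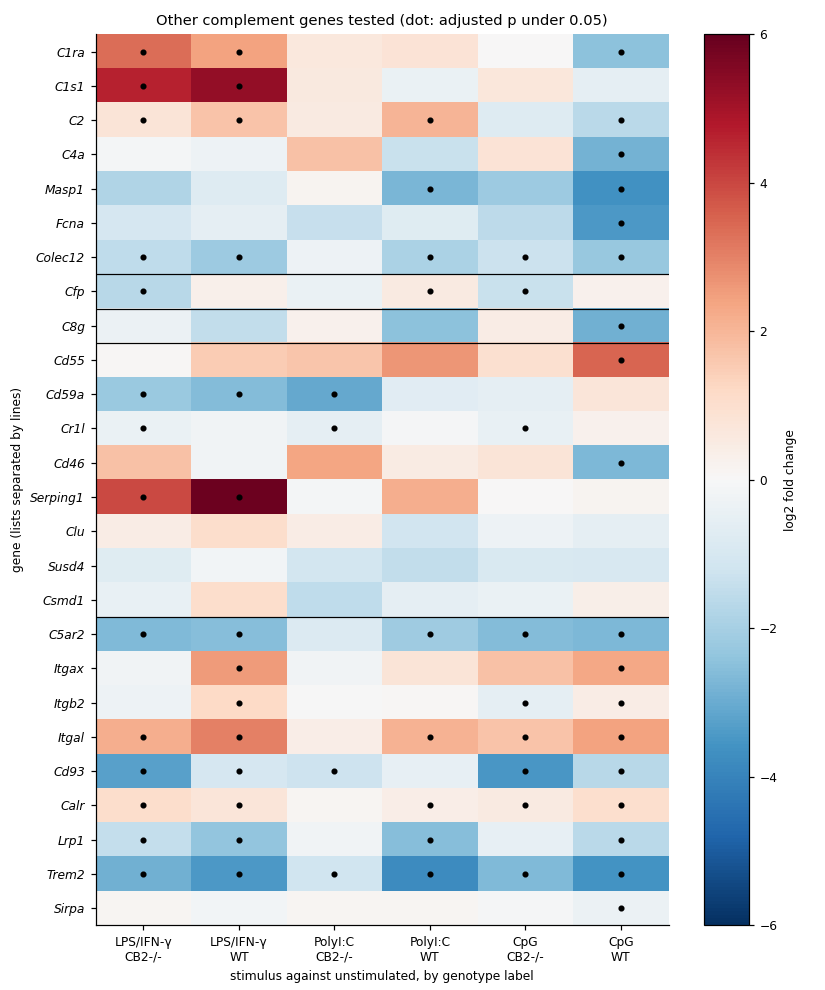
Log2 fold change of the 26 other complement genes tested, with genes in rows grouped by list and the 6 stimulus comparisons in columns; red is higher and blue lower than unstimulated, and a black dot marks an adjusted p under 0.05. Trem2 is blue with a dot in all 6 columns, and Serping1, C1ra and C1s1 are red with a dot in both LPS/IFN-γ columns.

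Across the 27 libraries, C1qa and C1qc followed each other (Pearson r of log2 values 0.94), C1qb followed C1qc (0.89) and C1qa (0.79), and C3 followed Cfb (0.70). C3ar1 ran against C1qc (-0.77) and C5ar1 followed Itgam (0.70). Among 7616 candidate genes, those whose log2 values were most like C3 were Fas, Ccl5 and Fpr2 (r 0.964, 0.963 and 0.963). The genes most like Cfb were Gbp3, Tspo and Slfn1 (0.964, 0.942 and 0.939), and Gbp and Slfn genes belong to families whose reads may be split. For Itgam they were Ptpn7, Actb and Slc12a4 (0.895, 0.87 and 0.864), for C5ar1 Flt1, Arhgef2 and Fmnl1 (0.904, 0.872 and 0.871) and for C3ar1 Ptpn12, Pstpip1 and Plekha2 (0.874, 0.863 and 0.854). C1qa was most like Mpc1 (0.89), C1qb like Ctdnep1 (0.89), C1qc like mt-Nd3 (0.898) and C4b like Csrp1 (0.871). These correlations describe 27 libraries that fall into 9 groups and differ in depth.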

How the data were processed

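The data are 75 bp single-end RNA-seq libraries of cultured microglia. Per the labels' protocols, TruSeq v2 (HiSeq1500) or a low-input SMART-Seq2 protocol was used, and which library had which is not stated. Per the submitters' processing notes, the tools included DESeq2, kallisto and CASAVA 1.8. Their roles and the genome build are not stated. The main table holds normalised counts that the authors deposited for 23995 genes, a signal scaled between libraries. In a library, 41.45 to 60.73% of the low values were multiples of the smallest recurring step (tolerance 0.01), so whole reads were not recovered and the depth is known only roughly. The authors also deposited batch-corrected values on a log2-like scale, which entered 1 alternative.

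Groups come from the labels, and replicates are numbered in record order. No label says that replicates came from separate cultures or animals, so p-values measure the spread between these libraries, which may be technical. Taking log2(value + 1) shrinks the ratio of 2 low values, but a baseline library at 0 can enlarge a change. The change of Cfb with LPS/IFN-γ in WT was 7.09, and 5.22 without the library listed at 0. The test used these log2 values. It covered 14668 genes that reached 10 in 3 or more libraries, in 1 fit of 9 groups and 27 libraries (limma 3.58.1, R 4.3.3, eBayes with trend, two-sided, Benjamini-Hochberg over these genes, called at an adjusted p under 0.05). WT responses used libraries 3012 to 3014 as baseline, and the unstimulated genotypes were compared through 2186 to 2188. C1q ratios were tested by exact permutation (SciPy 1.17.1). The fit was also run on simulated data, with independent normal noise and known changes only in genes of higher mean. Those data had no series or depth differences. The run therefore says nothing on such differences or on low rows such as C4b. Positions are from GENCODE M21 (GRCm38), to which 23933 of 23995 identifiers matched without version, and promoters from RefSeq (GRCm38.p6). Figures were drawn with matplotlib 3.10.9.

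The members, lists and tests were chosen with earlier results of these data known. All 9 members are named in every comparison. A listed gene may be given with values only where it is called and its higher group averages 100 or more, at most 4 per list and comparison, and each gene so allowed is given in at least 1 comparison, not in all. Values of C1s1, C5ar2, Cfp and Colec12 in comparisons where they miss that rule were added after they were seen. From the lists as first drawn up, 1 gene was left out of all counts and is not reported here. The genes most like a member are the 3 with the highest correlation. Alternatives changed the low-value filter, the pseudocount, the scaling, the groups fitted, the weights and variance model, the WT baseline, the fold required and the table, and each library was left out once.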

Additional observations from a re-analysis of the deposited data

Results flagged for a closer look

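For 15 results the response to a stimulus differed between the genotype labels by the test of the difference itself (response of libraries labelled CB2-/- minus WT response, limma, Benjamini-Hochberg over all tested genes). The values are on the log2 scale. For LPS/IFN-γ they were -3.76 for Cfb, -0.84 for C3ar1, -1.14 for C5ar1 and -1.46 for Itgam. For PolyI:C they were 0.66 for C1qa, 0.65 for C1qc, -0.71 for C3, -5.42 for Cfb, -1.24 for C3ar1, -0.81 for C5ar1, -1.38 for Itgam and -3.71 for Gm49368. For CpG they were -0.84 for C3ar1, -1.05 for C5ar1 and -1.76 for Itgam. Treated libraries labelled CB2-/- and treated WT libraries come from different number series, so genotype and series cannot be told apart in these values. Over all genes, 3.98% were called higher and 8.36% lower for LPS/IFN-γ, 10.8% and 13.9% for PolyI:C and 6.11% and 5.66% for CpG. Several calls were lost under alternatives. Quantile scaling ended those of C3ar1 for LPS/IFN-γ and of C3, C3ar1 and C5ar1 for PolyI:C. The baseline of all 6 unstimulated WT libraries ended those of C1qa and C1qc. Without the library listed at 0, Cfb was at -1.89 for LPS/IFN-γ and -3.55 for PolyI:C.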

How the results depend on the processing

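Of 170 results of the members, 92 were called. Of these calls 73 were made in every fit that left out 1 library. Under every other alternative fitted for the comparison 42 were made, and 42 under both. The required log2 change of at least 1 is not among these alternatives, because it entered only the counts of rows called. The baseline of all unstimulated WT libraries as 1 group was not fitted for pairs of stimuli or between the WT sets. No paired analysis was possible because the labels give no replicate numbers. Quantile scaling moved the median of all genes by -0.11 for LPS/IFN-γ in WT, 0.14 for CpG in WT, -0.12 for the difference in the CpG response, -0.28 for LPS/IFN-γ against CpG in WT and -0.15 for PolyI:C against CpG in WT. It turned the direction of C1qb (-0.82), C3ar1 (-0.43) and Itgam (-0.23) with LPS/IFN-γ in WT, and of C5ar1 (-0.48) and Cfp (-0.28) with PolyI:C in WT. It also turned C1qa for LPS/IFN-γ against PolyI:C in libraries labelled CB2-/- (-0.44), C1qa (-0.81), C1qb (-0.30) and C1qc (-0.41) for LPS/IFN-γ against CpG in WT, and C3 (-0.0019) and C3ar1 (-0.31) for PolyI:C against CpG in WT. The batch-corrected table turned Gm49368 with CpG in WT (1.32). The causes were not tested.

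Numbers of the 10 rows called moved as follows. Here and in the fits that left out 1 library, the share of all genes called under the same setting is not given. These counts therefore describe the settings and are no result about the members. With all 6 unstimulated WT libraries as 1 group, 4, 2 and 2 were called with LPS/IFN-γ, PolyI:C and CpG in libraries labelled CB2-/-, 3 with CpG in WT, 4 between unstimulated genotypes, and 2 and 5 for the differences in LPS/IFN-γ and PolyI:C responses. With an absolute log2 change of at least 1, the counts were 3, 1 and 1 with the stimuli in libraries labelled CB2-/-, 4 with LPS/IFN-γ and 2 with CpG in WT, 0 between unstimulated genotypes, 4 for the difference in PolyI:C response and 3 between the WT sets. For LPS/IFN-γ against PolyI:C they were 1 in libraries labelled CB2-/- and 0 in WT, for LPS/IFN-γ against CpG 4 in WT, and for PolyI:C against CpG 0 and 2. With only the groups compared, the counts were 7 with PolyI:C in libraries labelled CB2-/-, 4 between unstimulated genotypes, 8 and 5 for LPS/IFN-γ against CpG, 7 and 2 for PolyI:C against CpG, and 2 between the WT sets. Library weights gave 6 between unstimulated genotypes, 6 for the difference in CpG response, 8 for LPS/IFN-γ against CpG and 5 for PolyI:C against CpG in libraries labelled CB2-/-. The batch-corrected table gave 6, 5 and 0 for the unstimulated genotypes, the difference in CpG response and the WT sets. Quantile scaling gave 4 between unstimulated genotypes and 8 for LPS/IFN-γ against CpG in libraries labelled CB2-/-, where a pseudocount of 0.5 gave 1. A pseudocount of 10 gave 4 between unstimulated genotypes, and no variance trend gave 0 for PolyI:C against CpG in libraries labelled CB2-/-. Of the 26 other complement genes, 9 were called with CpG in libraries labelled CB2-/- and 18 in WT, against 14 and 10 with only the groups compared. Library weights gave 14 with CpG in libraries labelled CB2-/-, and 11 and 13 for the differences in LPS/IFN-γ and PolyI:C responses, where 6 and 7 were called; the batch-corrected table gave 10 and 12.

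Leaving out 1 library at a time gave 5 to 8, 4 to 5 and 3 to 4 called with LPS/IFN-γ, PolyI:C and CpG in libraries labelled CB2-/-, and 6 to 8, 8 to 9 and 6 to 7 in WT. The ranges were 2 to 4 between unstimulated genotypes (4 without replicate 1 of WT 2186 to 2188), 3 to 5, 7 to 8 and 3 to 5 for the differences, and 6 to 8 between the WT sets. The difference in CpG response had 5 without replicate 1 of either WT set. For LPS/IFN-γ against PolyI:C the ranges were 5 to 6 and 4 to 8 (4 in WT without LPS/IFN-γ replicate 3), for LPS/IFN-γ against CpG 1 to 4 and 5 to 8, and for PolyI:C against CpG 0 to 3 and 5 to 7. In libraries labelled CB2-/-, 1 was called for LPS/IFN-γ against CpG without any LPS/IFN-γ library or CpG replicate 1 or 3, and 0 or 1 for PolyI:C against CpG without any PolyI:C or CpG library. In WT, 5 were called for LPS/IFN-γ against CpG without CpG replicate 2. Values at low normalised counts, as for C4b, Cfb in unstimulated WT and Gm49368, rest on few reads and carry the largest errors.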
